A study of Oryza sativa with 6 samples.

Results

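The roots of OE15 and OE20, a pair of independent rice lines that overexpress *OsMYB305*, were compared directly with each other, with the wild type (WT) shown beside them. The comparison rests on 4 of the 6 libraries of the series, 2 per line, and the WT adds 2 libraries. A locus was tested where its FPKM averaged 1 or more over all 6 libraries, which held for 20627 of the 55982 loci kept. FPKM scales the fragments of a locus to transcript length and to the mapped total of its library. OE15 and OE20 carry the *OsMYB305* coding sequence behind the CaMV 35S promoter, which is active in most plant tissues, in the cultivar ZH11, and the WT is ZH11. Roots came from seedlings of the 3 genotypes under low N (0.288 mM NH4NO3). By the labels the plants grew for 14 days in MS culture solution, and the study's methods describe Yoshida solution. Each line stands for 1 transformation event as far as the sources tell. Nothing in the labels says that the 2 libraries of a genotype came from separate cultures or plants, so the p-values measure the spread between these libraries, which may be technical.

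*OsMYB305* encodes an R2R3-MYB protein, a member of a large plant family of transcription factors that bind DNA through a pair of MYB repeats and control, among other traits, secondary wall formation, phenylpropanoid metabolism and responses to nutrients. Lines made by Agrobacterium transformation carry the transgene at different places in the genome, often in different copy numbers, and they go through tissue culture before plants are regenerated. Independent lines of one construct are therefore grown side by side, and what they share is usually read apart from what only one of them shows.

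*OsMYB305* (LOC_Os01g45090) itself was higher in OE15 than in OE20. OE15 gave 150.2 and 148 FPKM, OE20 gave 81.3 and 80.2 FPKM, and the WT gave 0.0388 and 0.0576 FPKM. The libraries of the 3 genotypes were apart from each other. The difference between the lines was 0.89 on the log2(FPKM + 0.1) scale, which is the scale of every difference given here (limma, SE = 0.073, adjusted p = 0.000886). After quantile normalization it was 0.91 with an adjusted p of 0.0588. The transcripts of the transgene and of the endogenous copy cannot be told apart in these values, and in whole roots fewer cells of a type and less RNA per cell cannot be told apart either.

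Across the transcriptome, 425 of the 20627 tested loci (2.06%) separated OE15 from OE20 by more than 1.5-fold with an adjusted p under 0.05, and these are called differing loci. Of these, 247 (1.2% of the tested loci) were higher in OE15 and 178 (0.863%) were lower. The differences were mostly modest, with a median of 0.86 for the loci higher in OE15 and -0.82 for the loci lower in OE15, against a median of 0.0072 over all tested loci. Changes above 2-fold were found at 78 loci that were higher in OE15 and 59 that were lower, and changes above 4-fold at 22 loci in each direction. The OE15 libraries lay apart from the OE20 libraries at all 425 loci, and they also did so at 57.8% of all tested loci. The larger number of higher loci was not stable. After quantile normalization 225 loci were higher and 209 were lower in OE15. Without OE15 replicate 2 the lower loci were the more numerous, and without OE15 replicate 1 the numbers were close. Without either OE20 library the higher loci stayed the more numerous. Without OE15 replicate 1, 149 loci were higher, and without OE20 replicate 1, 111 loci were lower.

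**Figure D1:**
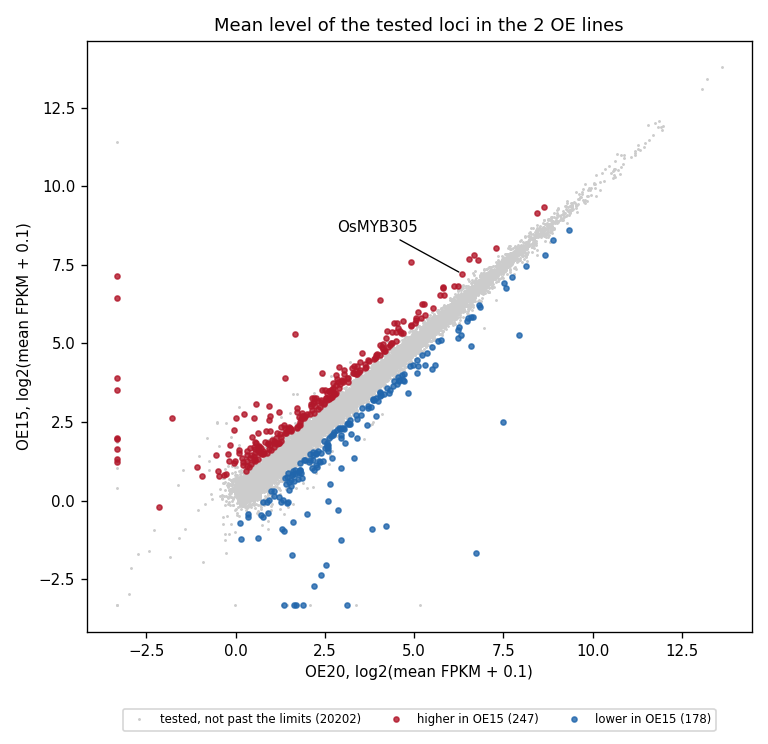
Mean level of the 20627 tested loci in OE15 (vertical axis) against OE20 (horizontal axis), each as log2(mean FPKM + 0.1). Red points are the 247 loci higher in OE15, blue points the 178 loci lower in OE15, and grey points the other loci. Most loci lie on a narrow diagonal, and the points on the left and lower edges are loci listed at 0 in both libraries of a line.

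The spread between libraries of one line gives the scale of these differences. The 2 OE15 libraries were more than 2-fold apart at 171 loci, the 2 OE20 libraries at 178 loci and the 2 WT libraries at 177 loci. Any OE15 library set against any OE20 library was more than 2-fold apart at 333 to 351 loci. The median absolute log2 difference was 0.075 between the OE15 libraries and 0.082 between the OE20 libraries, and it was 0.131 to 0.138 between libraries of different lines. Without the limit on the size of the change, 1124 loci (5.45%) were higher and 1263 loci (6.12%) were lower in OE15, so at any size the lower loci were the more numerous. The share of loci that differed was 3.10% among loci of 1 to 5 FPKM, 1.76% at 5 to 20 FPKM, 1.47% at 20 to 100 FPKM and 1.07% at 100 FPKM and above.

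A large fitted difference was not enough to pass the test. Of 255 loci with a fitted difference above 2-fold, 118 did not pass. Of 47 loci above 8-fold, 21 did not pass, and in 19 of these a line had one library listed at 0 and the other above 0. The most extreme example, picked after the values were seen, was LOC_Os04g32710, at 5417 FPKM in OE15 replicate 2 and listed at 0 in OE15 replicate 1 and in all OE20 and WT libraries (adjusted p = 0.280). In files of this kind a 0 may stand for an estimate that failed.

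The WT shows in which line a differing locus departed from its usual level. By the same limits OE15 differed from the WT at 1134 loci (5.5% of the tested loci, 2.9% higher and 2.59% lower), and OE20 at 641 loci (3.11%, 1.46% higher and 1.64% lower). Of the 425 loci that differed between the lines, 178 (41.9%) were called against the WT in OE15 alone, with a median absolute difference from the WT of 0.92 in OE15 and 0.15 in OE20. Of these 178, 98 were higher and 80 were lower in OE15 than in OE20. A further 68 loci (16%) were called against the WT in OE20 alone, with a median absolute difference from the WT of 0.17 in OE15 and 0.98 in OE20. In 42 of these 68 loci OE20 was the lower line, and in 26 it was the higher line. A locus called in one line alone is not shown to equal the WT in the other.

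Both lines were called against the WT in the same direction at 42 of the differing loci (9.88%). Their median absolute difference from the WT was 2.54 in OE15 and 1.97 in OE20. A locus of this class must pass the limit in both lines and again between the lines. Wide departures therefore follow in part from its definition. OE15 was farther from the WT than OE20 at 30 of these loci, and OE20 was farther at 12. They belong to 435 loci that were called in both lines in the same direction, of which 9.66% differed between the lines. Of the 223 loci that were lower than the WT in both lines, 9 lay lower in OE15 than in OE20 and 5 lay higher. Of the 212 loci that were higher than the WT in both lines, 21 were higher and 7 were lower in OE15 than in OE20. The remaining 130 differing loci (30.6%) were called against the WT in neither line, and the WT mean lay between the means of OE15 and OE20 at 129 of them. A WT mean outside those of the lines would as a rule put the farther line past the limit on size. The 129 therefore follow largely from how the class was defined. The comparisons of OE15 and OE20 with the WT share the 2 WT libraries, and these counts are therefore given as a description. The 130 loci called in neither line numbered 73 without OE15 replicate 1, 61 without OE15 replicate 2 and 64 without OE20 replicate 1. The 42 loci called in both lines numbered 23 without OE15 replicate 1 and 26 without OE15 replicate 2.

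**Figure D2:**
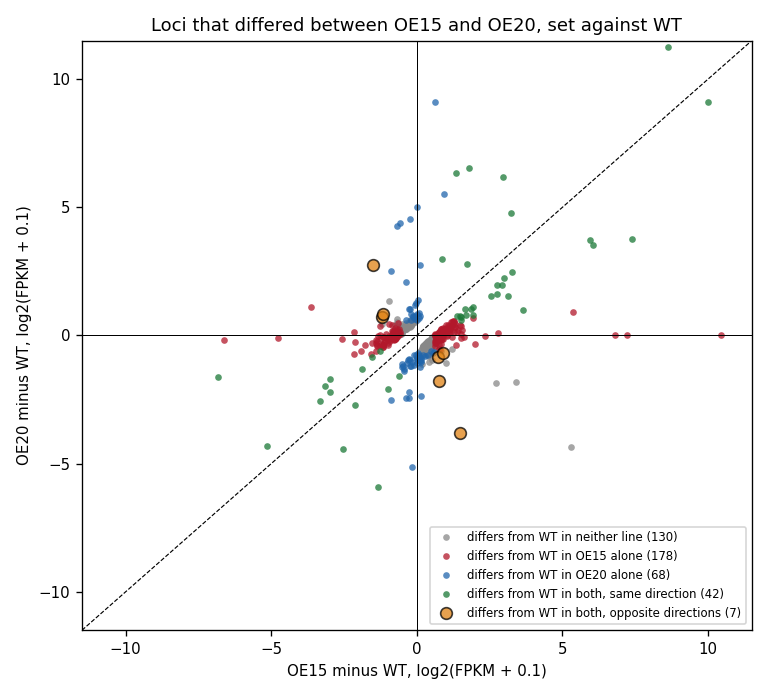
The 425 loci that differed between the lines, with the log2 difference of OE15 from the WT on the horizontal axis and that of OE20 from the WT on the vertical axis. Colours give the lines in which a locus was called against the WT, and the dashed line marks equal departure. Loci called in OE15 alone (178) spread along the horizontal axis, loci called in OE20 alone (68) along the vertical axis, and the 7 ringed points are loci called in opposite directions.

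Opposite changes in the lines were rare. At 7 loci (1.65% of the differing loci) both lines were called against the WT, but in opposite directions. OE15 was above and OE20 below the WT at 4 of them, and the reverse was found at 3. None of the 7 carries a gene name or a role in the sources used here, so they are given by locus. LOC_Os08g42800 was at 3.35 and 4.46 FPKM in OE15, listed at 0 in both OE20 libraries, and at 1.42 and 1.20 FPKM in the WT. LOC_Os07g27300 was at 15.7 and 14.2 FPKM in OE15, 2.59 and 2.47 FPKM in OE20, and 8.94 and 8.78 FPKM in the WT. At LOC_Os07g27300 OE15 was 0.75 above and OE20 1.77 below the WT on the log2 scale, and the lines differed by 2.52 (SE = 0.081, adjusted p = 2.24e-05, limma).

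The reverse pattern was widest at LOC_Os06g21140, with 0.372 and 0.259 FPKM in OE15, 8.26 and 7.11 FPKM in OE20, and 1.07 and 1.04 FPKM in the WT. Its lines differed by -4.24 (SE = 0.20, adjusted p = 0.000122, limma). LOC_Os07g44250 was at 2.08 and 2.80 FPKM in OE15, 9.55 and 10.2 FPKM in OE20, and 5.72 and 5.34 FPKM in the WT. The difference between the lines at that locus was -1.99 (SE = 0.14, adjusted p = 0.000512, limma). The libraries of the 3 genotypes did not overlap at any of these 4 loci. The number of such loci was 4 without OE20 replicate 2 or without either WT library, and 9 without OE15 replicate 1.

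Presence in one line only was described with fixed limits and no test, as at least 1 FPKM in both libraries of a line and below 0.1 FPKM in both libraries of the other. By these limits 10 tested loci were present in OE15 and not in OE20, and OE20 was listed at 0 in both libraries at all 10. Their OE15 values had a lowest of 1.72, a median of 3.98 and a highest of 175 FPKM. By the test 9 of the 10 were differing loci, and LOC_Os07g23380 was not (adjusted p = 0.0591, limma). It was listed at the same OE15 values as LOC_Os01g69890, 2.41 and 2.11 FPKM, and so was LOC_Os09g22490, which was not tested. LOC_Os01g69890 was among the 9 (adjusted p = 0.000743, limma). Values repeated across loci may stand for the same very small number of fragments. That number is unknown, so presence at these limits is uncertain for the lowest loci, and so is the call of LOC_Os01g69890. In the WT, 3 of the 10 were present in both libraries and 3 were absent from both. Another 6 tested loci were present in OE20 and not in OE15, with OE20 values from 1.49 to 9.39 FPKM and a median of 3.61 FPKM. Of these 6, 4 were present in both WT libraries and 1 was absent from both. Counted over all loci, the numbers were 19 for OE15 and 13 for OE20. Of the 19, 12 were absent from both WT libraries and 3 were present in both. Of the 13, 8 were absent from both and 4 were present in both. A low locus reaches the minimum mean over all 6 libraries more easily where the WT also has it. The WT split of the tested loci therefore depends on that minimum. A limit met by fewer libraries is looser, and among the tested loci the 10 became 18 without OE20 replicate 1 and 21 without OE20 replicate 2. The 6 likewise became 11 without OE20 replicate 1, 11 without OE15 replicate 1 and 15 without OE15 replicate 2.

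The highest of them was LOC_Os06g08320, at 111 and 175 FPKM in OE15 and listed at 0 in both OE20 and both WT libraries. Of the 3 genotypes it was thus above 0 in OE15 alone. LOC_Os01g08300 was at 51.8 and 123 FPKM in OE15 and listed at 0 in both OE20 libraries, but the WT libraries were at 42.3 and 0 FPKM. Its adjusted p was 0.0440 (limma), and it was 0.150 to 0.187 when any OE library was left out. LOC_Os06g08210, close to LOC_Os06g08320 in the order of locus names, showed the reverse, listed at 0 in both OE15 libraries, with 9.39 and 7.74 FPKM in OE20 and 14.1 and 6.67 FPKM in the WT. LOC_Os01g08530 was at 0.0264 and 0.0774 FPKM in OE15, 4.54 and 4.44 FPKM in OE20, and 0.188 and 0.0994 FPKM in the WT. The widest fall in OE15 relative to OE20 was at LOC_Os03g18779, with 0.123 and 0.301 FPKM in OE15, 109 and 105 FPKM in OE20, and 0.0939 and 0.0927 FPKM in the WT (difference -8.48, SE = 0.27, adjusted p = 2.24e-05, limma). That locus was called against the WT in OE20 alone. None of these loci has an annotation in the sources used here.

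**Figure D3:**
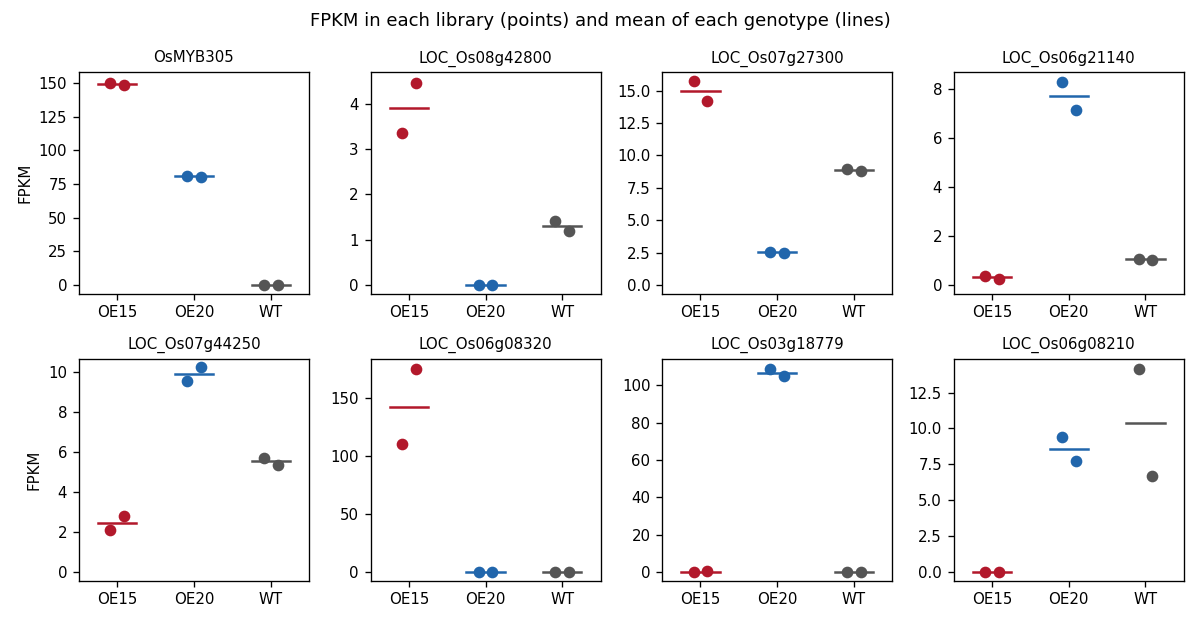
FPKM of *OsMYB305* and 7 loci in each library (points) with the mean of each genotype (lines), from left to right OE15, OE20 and WT, each panel on its own linear axis. *OsMYB305* was near 150.2 FPKM in OE15 and 81.3 FPKM in OE20. LOC_Os08g42800 and LOC_Os07g27300 were above the WT in OE15 and below it in OE20, LOC_Os06g21140 and LOC_Os07g44250 the reverse, and the last 3 panels show loci that were high in one OE line and at or near 0 in the other.

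Differing loci lay on every chromosome, from 1.18% of the tested loci on chromosome 8 to 2.95% on chromosome 11. Runs were counted in the order of the locus names, with members at most 5 tested loci apart. Of the 425 loci, 127 (29.9%) were in 52 runs of 2 or more, of which 36 held 1 direction only and 16 held both. With a reach of 5 tested loci, some runs arise without any grouping. The share to be had that way was not computed, so the 29.9% is a description only. The longest runs held 5 loci. On chromosome 5, 5 of 6 tested loci from LOC_Os05g05020 to LOC_Os05g05080 were higher in OE15, by 0.97 to 2.07 on the log2 scale, and the WT mean lay between the lines at all 5. The first of them was at 16.7 and 15.3 FPKM in OE15, 7.62 and 6.17 FPKM in OE20, and 9.39 and 12.2 FPKM in the WT. On chromosome 12, 5 of 8 tested loci from LOC_Os12g36750 to LOC_Os12g36880 differed, in both directions, between -0.64 and 0.97. In that run LOC_Os12g36830 was at 111 and 106 FPKM in OE15, 53.9 and 57.5 FPKM in OE20, and 101 and 103 FPKM in the WT, so OE20 was the line that stood apart.

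Runs of 4 loci, looked up after the values were seen, lay on chromosomes 2, 4 and 7. All 4 tested loci from LOC_Os02g06754 to LOC_Os02g06779 were higher in OE15, by 0.72 to 1.74. From LOC_Os04g24328 to LOC_Os04g24469, 4 of 7 tested loci were lower in OE15, by -1.41 to -0.63. From LOC_Os07g23410 to LOC_Os07g23660, 4 of 7 tested loci were higher in OE15, by 1.10 to 1.60, and this run held 2 of the 7 loci called in opposite directions against the WT. The insertion sites of the transgene were not analysed here.

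Annotations were available for the 462 loci that the study lists as changed in OE roots and for the genes it names, and 449 of the 462 were tested. That list was drawn from these libraries for its changes against the WT, so its directions are not independent evidence. Of the 224 tested loci that it gives as higher in OE roots, 16 were higher and 1 was lower in OE15 than in OE20, and at any size 55 were higher and 4 were lower, with a median of 0.14. Of the 225 tested loci that it gives as lower, 6 were higher and 8 were lower, and at any size 12 were higher and 44 were lower, with a median of -0.13. Over all tested loci the median was 0.0072, with 1.2% higher and 0.863% lower, and at any size 5.45% higher and 6.12% lower. Counts in the gene families below, whose members come mostly from that list, stand beside these shares. Of the 425 differing loci, 31 were annotated, 22 higher and 9 lower in OE15. The annotated loci differed from the rest in where they stood against the WT, since 24 of the 31 were called in both lines in the same direction, which follows from the way the list was made. OE15 was the line farther from the WT at 21 of these 24. The exceptions were the BAK1-type kinase described below, an expressed protein (LOC_Os07g03040) and a carboxyvinyl-carboxyphosphonate phosphorylmutase (LOC_Os12g08760), where OE20 was farther.

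Signalling and defence genes were among the annotated loci higher in OE15. Both RALF genes on the list, which encode small secreted peptides sensed by receptor-like kinases at the cell surface, were higher in OE15. *RALFL28* (LOC_Os06g29730) was at 42.8 and 40.6 FPKM in OE15, 18.9 and 18.9 FPKM in OE20, and 5.01 and 7.51 FPKM in the WT (difference 1.14, SE = 0.16, adjusted p = 0.00705, limma). *RALFL26* (LOC_Os10g41980) was at 634 and 674 FPKM in OE15, 409 and 385 FPKM in OE20, and 275 and 262 FPKM in the WT (difference 0.72, SE = 0.047, adjusted p = 0.000335, limma). OE15 was the highest and the WT the lowest genotype for both, with no overlap of libraries. The call of *RALFL28* was lost, at adjusted p between 0.0518 and 0.0613, when any OE library was left out.

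Of 12 tested defence proteins, 3 were higher and 0 lower in OE15 with the limit on size, and 4 were higher and 3 lower without it, beside 1.2% and 0.863% of all tested loci with the limit and 5.45% and 6.12% without it. The study's higher list of 224 had 16 higher and 1 lower with the limit, and 55 and 4 without it. Its lower list of 225 had 6 higher and 8 lower with the limit, and 12 and 44 without it. An NB-ARC protein (LOC_Os06g15750), of the class of intracellular resistance receptors, was at 4.25 and 3.76 FPKM in OE15, 1.43 and 1.10 FPKM in OE20, and 0.390 and 0.343 FPKM in the WT. Its difference of 1.60 was the largest rise among the annotated loci (SE = 0.21, adjusted p = 0.00525, limma), with an adjusted p of 0.0521 without OE15 replicate 1. *CHIT16* (LOC_Os03g04060), a chitinase that cleaves a polymer of fungal walls, was at 20.6 and 21.3 FPKM in OE15, 10.8 and 11.4 FPKM in OE20, and 7.53 and 6.94 FPKM in the WT. *WIP2* (LOC_Os11g37940), a wound-induced protein, was at 29.2 and 27.8 FPKM in OE15, 18.6 and 16.1 FPKM in OE20, and 37.0 and 42.3 FPKM in the WT, so OE20 was the line farther from the WT. In the same 12, *WIP4* (LOC_Os11g37960) was higher in OE15 by 0.53 (adjusted p = 0.000759, limma), at most 1.5-fold. The 3 lower ones were also at most 1.5-fold apart. They were a harpin-induced protein (LOC_Os01g09880, -0.26), a hypersensitive-induced response protein (LOC_Os01g40560, -0.25) and a pathogenesis-related Bet v I protein (LOC_Os03g18850, -0.19).

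The kinase annotated as BRASSINOSTEROID INSENSITIVE 1-associated receptor kinase 1 (LOC_Os11g31540), the class of co-receptors that pair with brassinosteroid and immune receptors, was at 36.1 and 35.8 FPKM in OE15, 16.9 and 19.9 FPKM in OE20, and 56.1 and 54.3 FPKM in the WT. It was the only 1 of 20 tested kinases that passed both limits (difference 0.97, SE = 0.073, adjusted p = 0.000676, limma), and at any size 4 kinases were higher and 1 was lower in OE15. *WRKY76* (LOC_Os09g25060), a WRKY factor known in rice for its part in defence, was at 3.26 and 3.32 FPKM in OE15, 1.89 and 1.79 FPKM in OE20, and 0.854 and 0.818 FPKM in the WT. It was the only 1 of 28 tested transcription factors that passed both limits (difference 0.81, SE = 0.15, adjusted p = 0.0181, limma), and its adjusted p was 0.0743 to 0.105 when any OE library was left out. At any size 7 of the 28 were higher and 0 were lower in OE15, with a list median of 0.16, beside 55 of 224 and a median of 0.14 for the study's whole higher list. *WRKY45* (LOC_Os05g25770), a regulator of rice disease resistance, was among the 7, at 18.5 and 19.4 FPKM in OE15, 13.2 and 14.3 FPKM in OE20, and 8.90 and 9.91 FPKM in the WT.

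Other annotated genes higher in OE15 encode enzymes. A NUDIX hydrolase (LOC_Os06g14420), of a family that cleaves nucleotide derivatives, was at 50.4 and 50.5 FPKM in OE15, 21.4 and 24.4 FPKM in OE20, and 11.8 and 14.5 FPKM in the WT (difference 1.14). A tasselseed-2 homologue (LOC_Os04g33240), named for a maize short-chain dehydrogenase needed for the abortion of pistils, was at 13.0 and 13.5 FPKM in OE15, 6.87 and 6.19 FPKM in OE20, and 1.88 and 2.53 FPKM in the WT (difference 1.01), with an adjusted p of 0.0582 without OE15 replicate 2 and 0.0530 without OE20 replicate 2. Patatin (LOC_Os08g37210), a lipid acyl hydrolase, was at 43.9 and 40.6 FPKM in OE15, 24.9 and 23.5 FPKM in OE20, and 14.4 and 14.9 FPKM in the WT (difference 0.80). All 3 kept the order OE15, OE20, WT from high to low.

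A dirigent gene (LOC_Os10g18760) was highest in the WT and lowest in OE20. Dirigent proteins guide the coupling of phenoxy radicals in lignan and lignin synthesis. It was at 199.8 and 207 FPKM in OE15, 113 and 109 FPKM in OE20, and 286 and 271 FPKM in the WT (difference 0.87, SE = 0.040, adjusted p = 0.000108, limma), and it was called against the WT in OE20 alone. Of 5 tested dirigent genes it was the only one past both limits, and at any size 2 were higher and 1 was lower in OE15. *LTPL160* (LOC_Os10g36170), a lipid transfer-like protein, was at 20.8 and 18.1 FPKM in OE15, 9.44 and 10.4 FPKM in OE20, and 1.84 and 3.25 FPKM in the WT (difference 0.96, adjusted p = 0.0412, limma), and its adjusted p was 0.133 to 0.192 when any OE library was left out. It was the only 1 of 7 tested lipid transfer proteins with an adjusted p under 0.05.

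The remaining named rises were LOC_Os01g35330, annotated as a circumsporozoite protein precursor, at 93.5 and 94.7 FPKM in OE15, 59.0 and 54.3 FPKM in OE20, and 11.9 and 11.8 FPKM in the WT, and 3 loci annotated as expressed proteins, LOC_Os05g47960 (0.88), LOC_Os04g06900 (0.80) and LOC_Os07g01904 (0.79). The 7 other annotated rises were between 0.59 and 0.72. They included a cupin protein (LOC_Os08g08960), the only 1 of 6 tested cupins past both limits, with 1 higher and 1 lower at any size. They also included an EF hand protein (LOC_Os06g46950), the only 1 of 4 tested calcium sensors past both limits, with 2 higher and 1 lower at any size.

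**Figure D4:**
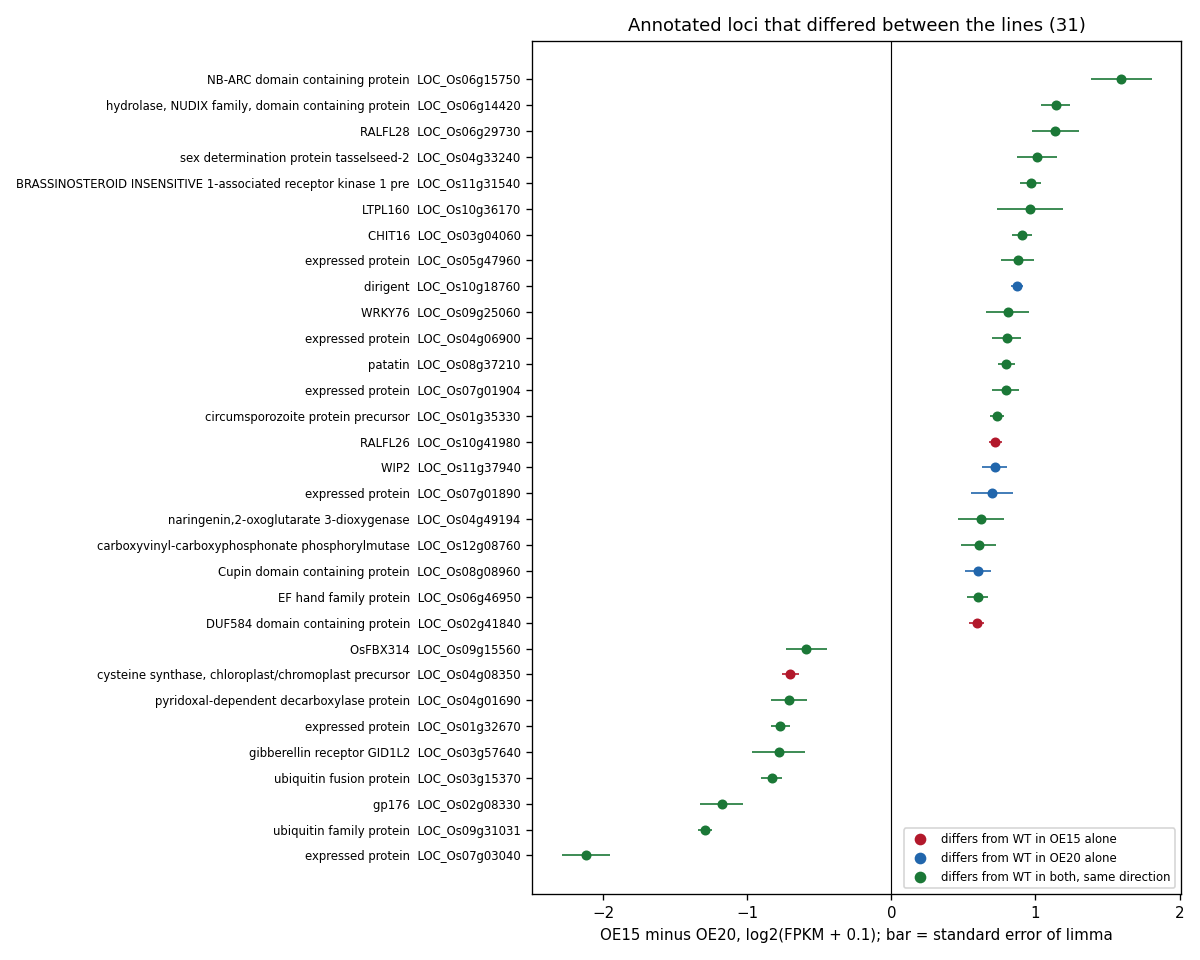
Difference between OE15 and OE20 on the log2 scale for the 31 annotated loci that differed, with the standard error of limma as bars and colours for the lines called against the WT. The rises run from 0.59 to 1.60 and the falls from -0.59 to -2.12. Most points are green, for the 24 loci called in both lines in the same direction.

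Genes of the ubiquitin system made up 3 of the 9 annotated loci lower in OE15. Ubiquitin is attached to other proteins and marks many of them for breakdown, with F-box proteins picking the targets in one class of ligases. Of 11 tested F-box, SKP1 and ubiquitin proteins, 3 were lower and 0 higher in OE15 with the limit on size, and 3 were lower and 1 higher without it, with a list median of -0.51, beside 8 lower with the limit and 44 without it among the 225 loci of the study's lower list. A ubiquitin family protein (LOC_Os09g31031) was at 19.6 and 19.6 FPKM in OE15, 46.0 and 50.3 FPKM in OE20, and 156 and 154 FPKM in the WT (difference -1.29, SE = 0.048, adjusted p = 4.31e-05, limma). A ubiquitin fusion protein (LOC_Os03g15370) was at 2.30 and 2.19 FPKM in OE15, 4.02 and 4.12 FPKM in OE20, and 86.8 and 79.9 FPKM in the WT (difference -0.83, SE = 0.071, adjusted p = 0.00102, limma). *OsFBX314* (LOC_Os09g15560) was at 1.89 and 1.57 FPKM in OE15, 2.62 and 2.66 FPKM in OE20, and 7.26 and 6.07 FPKM in the WT (difference -0.59, adjusted p = 0.0415, limma), and its adjusted p was 0.0528 to 0.181 when any library was left out. OE15 was the line farther from the WT in all 3. The exception in direction was *OsFBX352* (LOC_Os10g03850), with a difference of 0.48 (adjusted p = 0.00320, limma).

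The other falls were of mixed roles. An expressed protein (LOC_Os07g03040) had the widest, at 1.18 and 1.49 FPKM in OE15, 5.99 and 6.22 FPKM in OE20, and 0.662 and 0.703 FPKM in the WT (difference -2.12, SE = 0.17, adjusted p = 0.000773, limma), so it was higher than the WT in both lines and farther in OE20. The locus annotated as gp176 (LOC_Os02g08330) was at 0.664 and 0.600 FPKM in OE15, 1.51 and 1.60 FPKM in OE20, and 6.09 and 6.74 FPKM in the WT. An expressed protein (LOC_Os01g32670) was at 14.5 and 13.4 FPKM in OE15, 24.97 and 22.8 FPKM in OE20, and 137 and 148 FPKM in the WT. Cysteine synthase (LOC_Os04g08350), the last enzyme of cysteine synthesis, was at 16.3 and 16.1 FPKM in OE15, 27.7 and 25.1 FPKM in OE20, and 36.0 and 36.8 FPKM in the WT, and it was called against the WT in OE15 alone. The gibberellin receptor-like *GID1L2* (LOC_Os03g57640, -0.78) lost its call when any library was left out, at adjusted p between 0.0602 and 0.145. The pyridoxal-dependent decarboxylase (LOC_Os04g01690, -0.71) lost its call without OE15 replicate 2 or either OE20 library, at adjusted p between 0.0647 and 0.0906.

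None of the genes that the study names for secondary walls passed both limits. Of the 12 tested, 4 were lower and 0 higher in OE15 at an adjusted p under 0.05, with a list median of -0.21. None of the 4 kept an adjusted p under 0.05 in every alternative tried, and their differences stayed negative in all of them. At any size 44 of 225 were lower and 12 higher in the study's whole lower list, with a median of -0.13. Of all tested loci, 6.12% were lower at any size. *OsCESA4*, a secondary wall cellulose synthase subunit, was at 39.7 and 39.8 FPKM in OE15, 46.1 and 46.9 FPKM in OE20, and 67.9 and 69.5 FPKM in the WT (difference -0.22, SE = 0.036, adjusted p = 0.0107, limma). *OsCESA7*, another subunit, was at 42.9 and 42.2 FPKM in OE15, 49.0 and 51.004 FPKM in OE20, and 72.2 and 78.1 FPKM in the WT (difference -0.23, adjusted p = 0.0265, limma). *OsBC1*, a COBRA-like protein of cellulose deposition, was at 17.4 and 16.7 FPKM in OE15, 22.4 and 21.1 FPKM in OE20, and 30.1 and 30.5 FPKM in the WT (difference -0.35, adjusted p = 0.00742, limma). *OsCSLF8*, of the cellulose synthase-like F family, was at 1.80 and 1.84 FPKM in OE15, 2.72 and 2.61 FPKM in OE20, and 4.78 and 4.21 FPKM in the WT (difference -0.53, adjusted p = 0.0372, limma). In all 4 the OE15 libraries were lowest and the WT libraries highest.

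The other wall genes did not pass at any size. *OsCESA9* was at 36.9 and 37.3 FPKM in OE15, 42.6 and 41.2 FPKM in OE20, and 67.8 and 74.7 FPKM in the WT (difference -0.18, adjusted p = 0.0785, limma). *OsCCR1*, *OsCSLE6*, *OsLAC14* and *OsGH9A3* had differences from -0.36 to -0.06 with adjusted p between 0.216 and 0.361. The methyltransferase gene *OsCCoAOMT* and the laccase gene *OsLAC10*, both of lignin formation, had differences of 0.15 (adjusted p = 0.106) and 0.12 (adjusted p = 0.492, limma). The MYB genes among the names stood at 0.12 for *OsMYB31* (adjusted p = 0.0843) and 0.31 for *OsMYB48* (adjusted p = 0.108, limma). Both were called higher than the WT in OE15 alone, by 0.61 and 0.75. *OsMYB48* was at 381 and 359 FPKM in OE15, 282 and 317 FPKM in OE20, and 196 and 245 FPKM in the WT. By qPCR the study reports *OsMYB48* as down-regulated in OE roots, the reverse of these values.

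Of the 4 nitrate genes, 0 differed at an adjusted p under 0.05 and 2 at an unadjusted p under 0.05 (limma). *OsNRT2.1*, a high-affinity nitrate transporter, was at 9.90 and 9.20 FPKM in OE15, 8.10 and 7.75 FPKM in OE20, and 5.81 and 6.07 FPKM in the WT (difference 0.26, SE = 0.074, adjusted p = 0.0661, limma). *OsNRT2.2*, its close relative, was at 13.5 and 13.2 FPKM in OE15, 11.3 and 11.3 FPKM in OE20, and 8.29 and 8.95 FPKM in the WT (difference 0.24, SE = 0.064, adjusted p = 0.0573, limma). The libraries of the lines did not overlap for these transporters or for *OsNIR2*, and the same held at 57.8% of all tested loci. *OsNAR2.1*, the partner protein of the NRT2 transporters, was at 126 and 123 FPKM in OE15, 127 and 125 FPKM in OE20, and 86.1 and 91.4 FPKM in the WT (difference -0.02), with an adjusted p of 0.798 (limma). *OsNIR2*, nitrite reductase, was at 881 and 866 FPKM in OE15, 821 and 858 FPKM in OE20, and 791 and 918 FPKM in the WT (difference 0.06, adjusted p = 0.621, limma), and the WT libraries spanned those of both lines.

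In the following lists members passed the adjusted p but not the limit on size. Of 6 tested thionins, small antimicrobial peptides, 4 were lower in OE15 at an adjusted p under 0.05, with a list median of -0.39, beside 44 of 225 for the study's whole lower list. *THION3* (LOC_Os06g31890) was at 571 and 587 FPKM in OE15, 781 and 745 FPKM in OE20, and 1027 and 1007 FPKM in the WT. *THION6* (LOC_Os06g32020), *THION7* (LOC_Os06g32160) and *THION9* (LOC_Os06g32240) were the others, and the 4 lie close together in the order of locus names on chromosome 6. The remaining thionins leaned the other way without passing. They were *THION34* (0.12, adjusted p = 0.417) and a thionin-like gene (LOC_Os07g25050, 0.20, adjusted p = 0.0566, limma). LOC_Os07g25050 had means of 10815 FPKM in OE15, 9407 FPKM in OE20 and 6708 FPKM in the WT. How fragments shared by near-identical copies were counted is not given, so single members of such families are uncertain. Of 4 tested ethylene genes, 3 were higher in OE15 at an adjusted p under 0.05 and 0 were lower, with a list median of 0.32, beside 55 of 224 for the study's whole higher list. LOC_Os05g05680, annotated as a 1-aminocyclopropane-1-carboxylate oxidase, the enzyme of the last step of ethylene synthesis, was at 48.6 and 46.0 FPKM in OE15, 34.6 and 36.1 FPKM in OE20, and 16.5 and 17.5 FPKM in the WT.

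In the remaining lists no member passed both limits. At any size, 1 of 6 glutathione S-transferases was higher and 3 were lower in OE15, 2 of 8 peroxidases were lower, 1 of 5 glycine-rich cell wall proteins was lower, 1 of 8 RING finger and spotted leaf 11 proteins was higher, 2 of 14 sugar transferases were higher, and 2 of 11 mobile elements were higher and 1 was lower. No member of the 19 cytochrome P450 genes, the 7 MATE and ABC transporters or the 4 jacalin lectins had an adjusted p under 0.05 (limma), and at an unadjusted p under 0.05 the numbers were 6, 0 and 1.

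**Figure D5:**
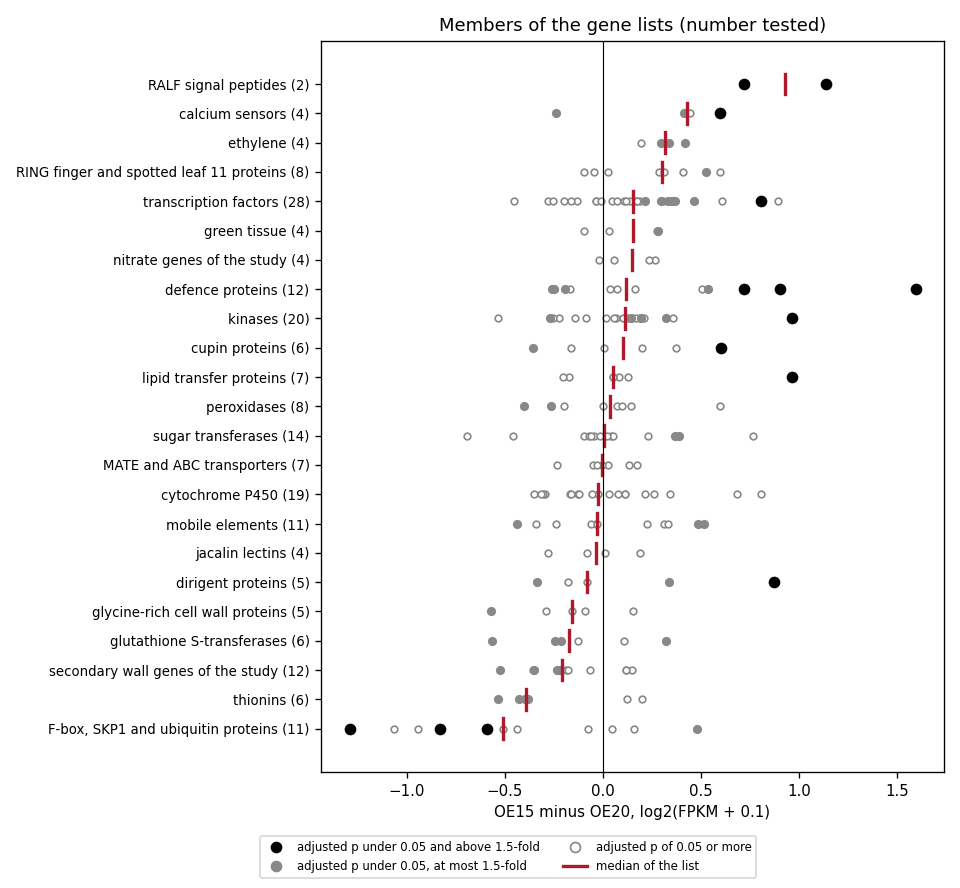
Difference between OE15 and OE20 on the log2 scale for each tested member of the gene lists, with the number tested in brackets and the list median as a red bar. Black points passed both limits, grey points had an adjusted p under 0.05 at most 1.5-fold apart, and open points did not pass. The median is lowest for F-box, SKP1 and ubiquitin proteins (-0.51) and highest for the 2 RALF genes (0.93).

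Between 46.4% and 47.8% of loci were listed at 0 in each library, and 20439 to 20644 loci reached 1 FPKM. The total of 6 genes known from roots was 265 to 269 FPKM in OE15, 283 to 284 FPKM in OE20 and 308 to 329 FPKM in the WT, and all 6 were above 0 in every library. This total mixed directions. *OsNRT2.1*, *OsNRT2.2* and *OsNAR2.1* had higher means in both lines than in the WT. *OsCESA4*, *OsCESA7* and *OsCESA9*, which the study names as lowered, had lower means. The total is therefore no measure of root content. The total of 4 genes of green tissue was 62.9 to 63.4 FPKM in OE15, 59.8 to 59.9 FPKM in OE20 and 86.2 to 86.8 FPKM in the WT, with all 4 above 0. The PsbP gene (LOC_Os10g32400) went the other way, with means of 7.39 FPKM in OE15, 7.92 FPKM in OE20 and 4.52 FPKM in the WT. At any size 1 of these 4 was higher in OE15 than in OE20 and 0 were lower, with a list median of 0.15. The part of green tissue in the differences between the lines was not tested.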

How the data were processed

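Root RNA-seq libraries of OE15, OE20 and WT (2 each) were analysed from the FPKM values deposited by the authors, 1 value per locus and library. The authors used FastQC 0.11.8, Trimmomatic 0.38, HISAT2 2.1.0 and Cufflinks 2.2.1, per the submitters' processing notes. The genome build, annotation release and strand setting are not given in the sources used here, so overlapping, antisense and near-identical genes cannot be separated. Groups came from the sample labels. Repeated locus names (4) were dropped. The locus names are those of MSU, and the reference gene table (ASM3414082v1) does not pair them with symbols, so annotations came from the study's gene lists and no coordinates or sequences are printed.

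The test of loci that averaged 1 FPKM or more was limma 3.58.1 (R 4.3.3) on log2(FPKM + 0.1), with a trend, in one fit of 3 genotypes with 3 residual degrees of freedom. Adjusted p-values are Benjamini-Hochberg over 20627 loci. A pseudocount understates changes of low genes. With 2 libraries against 2, an exact two-sided permutation test cannot go below p = 0.333, so none is given. The members, the lists and the tests were chosen with earlier results of these data known. The gene lists were words searched in the study's annotations: wall and nitrate genes that the study names, F-box, SKP1 and ubiquitin, RING finger, thionins, glycine-rich, dirigent, cytochrome P450, peroxidases, glutathione S-transferases, cupin, calcium, ethylene, transcription factors, kinases, defence, mobile elements, MATE and ABC, jacalin, lipid transfer, sugar transferases, RALF and green tissue. Named loci were *OsMYB305*, the genes the study names, the 15 largest rises and falls with an annotation, up to 2 unannotated loci for each direction, opposite change or line of presence, and the longest runs. Others are marked as picked after their values were seen, or are members of a list.

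FPKM holds no fragment totals, so no counting interval is given. Steps between the lowest values put the OE libraries at 0.983 to 1.08 times the depth of WT replicate 1, and WT replicate 2 at 0.680 or 1.36 times. On simulated data for OE15 against OE20 with 20627 loci, a planted log2 change of 1 was recovered at 86 of 100 loci and a change of 2 at 99 of 100, with 3 false calls. Simulated noise was not shared between loci. Alternatives were the pseudocount, the minimum, the scaling, the replicate block, the 4 OE libraries alone, the trend, the limits, and each library left out. Count-based tests were not run.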

Additional observations from a re-analysis of the deposited data

Results flagged for a closer look

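Departures from the WT that differed between the 2 lines, by the direct test of OE15 against OE20, are collected here for the named loci. At 7 loci the lines were called against the WT in opposite directions, and the difference between the lines was 5.31 at LOC_Os08g42800, 2.52 at LOC_Os07g27300, -4.24 at LOC_Os06g21140 and -1.99 at LOC_Os07g44250. Among loci without an annotation, the difference was 10.44 at LOC_Os06g08320, -8.48 at LOC_Os03g18779, -6.43 at LOC_Os06g08210 and -4.94 at LOC_Os01g08530. Where a line is listed at 0, the size of these values depends on the pseudocount.

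For *OsMYB305* (LOC_Os01g45090) the difference was 0.89. Among annotated loci higher in OE15, it was 1.60 at LOC_Os06g15750, 1.14 at LOC_Os06g14420, 1.14 at LOC_Os06g29730, 1.01 at LOC_Os04g33240, 0.97 at LOC_Os11g31540, 0.96 at LOC_Os10g36170, 0.91 at LOC_Os03g04060, 0.88 at LOC_Os05g47960, 0.87 at LOC_Os10g18760, 0.81 at LOC_Os09g25060, 0.80 at LOC_Os04g06900, 0.80 at LOC_Os08g37210, 0.79 at LOC_Os07g01904, 0.73 at LOC_Os01g35330 and 0.72 at LOC_Os10g41980. Among annotated loci lower in OE15, it was -2.12 at LOC_Os07g03040, -1.29 at LOC_Os09g31031, -1.18 at LOC_Os02g08330, -0.83 at LOC_Os03g15370, -0.78 at LOC_Os03g57640, -0.77 at LOC_Os01g32670, -0.71 at LOC_Os04g01690, -0.70 at LOC_Os04g08350 and -0.59 at LOC_Os09g15560. All differences are OE15 minus OE20 on the log2(FPKM + 0.1) scale. No cause of any of them was tested.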

How the results depend on the processing

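The 425 differing loci became 337 with a pseudocount of 1, 437 with 0.01, 401 with no minimum, 434 after quantile normalization, 426 after median-ratio scaling, 423 from the 4 OE libraries alone, 316 without the trend and, chosen after seeing the data, 434 among loci above 0 in every library. With a minimum mean of 5 FPKM, which tests fewer loci, 139 were higher and 94 lower in OE15, with 103 called against the WT in OE15 alone, 34 in OE20 alone, 21 in both lines in the same direction, 2 in opposite directions and 73 in neither. With an adjusted p under 0.01 these numbers were 140, 105, 114, 45, 22, 2 and 62, and without a limit on size they were 1124, 1263, 1098, 344, 348, 68 and 529. With no minimum, 27 loci were called in both lines in the same direction, 4 in opposite directions and 76 in neither, and without the trend 86 were called in neither. The difference of *OsMYB305* after quantile normalization was 0.91, past the threshold no longer. For all of these the cause was not tested.

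Leaving out each library in turn gave 137 to 250 higher and 111 to 173 lower loci, 122 to 167 in OE15 alone, 48 to 72 in OE20 alone, 23 to 43 in both lines in the same direction, 4 to 9 in opposite directions and 61 to 166 in neither. Loci present in OE15 alone numbered 13 to 21 and in OE20 alone 9 to 15 among the tested loci, and *OsMYB305* stayed at 0.88 to 0.90. Of the 425 loci, 231 to 389 were shared with the same direction by these fits. A line left with 1 library was assumed to vary like the others.

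The correlation of same-numbered deviations was -0.069 between OE15 and OE20, 0.023 between OE15 and WT and 0.031 between OE20 and WT. No shift shared by same-numbered libraries was thus seen across loci. Whether the replicate numbers pair the libraries cannot be told from these values. With the replicate number as a block, 244 loci were higher and 176 lower in OE15, and 392 of the 420 were shared. The other blocked counts were 178, 78, 40, 6 and 118, in the order of classes above, and *OsMYB305* stayed at 0.89.

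Over 50 named loci and 18 alternatives, no difference changed sign, 823 values kept their side of the threshold, 57 fell below it and 4 passed it newly. The threshold here is the adjusted p and the limit on size together. A smaller difference that lost its adjusted p alone is therefore not counted as a loss. A locus at 1 to 5 FPKM rests on few fragments, and its fragment number is unknown.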
